A study of Mus musculus with 2 samples.

Results

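Among the CD45-positive cells of B16-F10 tumors, a small set of CD8 T cells carried messenger RNA of Gzmc or Gzmf, which encode granzymes C and F. They were picked from raw molecule counts (UMIs, each standing for 1 captured RNA molecule) in droplet single-cell sequencing. A barcode was kept when it held 500 UMIs and 200 genes or more and when mitochondrial genes gave no more than 10% of its UMIs. To qualify it also had at least 1 UMI of Cd3d, Cd3e or Cd3g, at least 1 of Cd8a or Cd8b1, none of Cd4, and at least 1 of Gzmc or Gzmf. Barcodes with more than 1 UMI of the division genes Mki67 and Top2a together, or with any of Ncr1, C1qa, C1qb, Csf1r or Cd79a, were left out by the same rule. It found 165 barcodes in the DOPAC library and 1 in the Control library, 166 of 18539 kept barcodes in all. They are called Gzmc/Gzmf barcodes here.

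The mice were wild type (WT) and bore tumors of B16-F10, a mouse melanoma line. The DOPAC group received DOPAC, a small acid formed when dopamine is broken down, and the Control group received the vehicle. The design names 4 mice a group, but each group is 1 library with no tag that ties a cell to a mouse, so differences between groups could not be tested against replicates. Intervals below cover counting error only. Strain, age, dose and time of treatment are not given in the sources used here. The sort kept leukocytes of the tumor, although the protocol text in the labels speaks of colon. The DOPAC library kept 10095 barcodes with a median of 3677 UMIs, and the Control library kept 8444 with a median of 9571.5. The libraries share 32 barcode sequences, none of them among the Gzmc/Gzmf barcodes. Scrublet, a doublet score, put 10 of the 165 DOPAC barcodes (6.06%) and the 1 Control barcode among its highest scores.

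Granzymes are serine proteases that killer lymphocytes store in granules and release, together with the pore-forming protein perforin, onto a target cell. Granzymes A and B are the best known. Granzymes C, D, E, F and G are rodent enzymes whose genes lie beside Gzmb on mouse chromosome 14, and they are known from strongly activated cytotoxic T cells and from NK cells of tumors. Their transcripts are alike, so a read from a stretch that 2 of these genes share may be given to either or to neither. The split between Gzmc, Gzmf and their neighbours is uncertain to that extent.

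The start regions of these genes are shown because they are what the cluster shares in sequence. On GRCm38, Gzmc lies at chr14:56231441-56234656 and Gzmf at chr14:56205263-56211417, both on the minus strand. The RefSeq promoter table (GRCm38.p6) holds all 6 genes searched, Gzmb, Gzmc, Gzmd, Gzme, Gzmf and Gzmg, and the 250 bases before each annotated start were read 5′ to 3′. Capitals mark TGACGTCA, the cAMP response element, a palindrome that reads the same on both strands. The Gzmc stretch is chr14:56234658-56234907 and the Gzmf stretch is chr14:56211408-56211657. The RefSeq starts are not all those of the gene coordinates, so the stretches are not equally placed against the latter. The Gzmf stretch reaches into the quoted gene, which ends at 56211417. The Gzmb stretch begins at 56262335, further out than its gene end at 56262260. What that offset does to the comparisons with Gzmb was not tested.
Gzmc: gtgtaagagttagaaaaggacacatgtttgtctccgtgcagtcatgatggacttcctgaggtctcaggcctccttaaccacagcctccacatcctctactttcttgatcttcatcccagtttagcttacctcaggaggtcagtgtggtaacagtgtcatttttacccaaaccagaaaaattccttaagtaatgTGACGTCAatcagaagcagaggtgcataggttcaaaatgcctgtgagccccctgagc
Gzmf: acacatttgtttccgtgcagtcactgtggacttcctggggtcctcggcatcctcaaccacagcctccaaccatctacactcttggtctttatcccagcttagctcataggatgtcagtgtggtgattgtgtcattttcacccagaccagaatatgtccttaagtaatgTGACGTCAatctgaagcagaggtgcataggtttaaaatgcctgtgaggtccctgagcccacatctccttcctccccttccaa

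Aligned over their whole length, the Gzmc and Gzmf stretches were identical at 71.5% of positions, and Gzmc and Gzmb at 50.2%. The block around the motif is set beside the same block of 3 neighbours, at chr14:56159629-56159668 for Gzmg, chr14:56132627-56132666 for Gzmd and chr14:56120660-56120699 for Gzme.
Gzmg: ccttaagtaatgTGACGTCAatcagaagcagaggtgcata
Gzmd: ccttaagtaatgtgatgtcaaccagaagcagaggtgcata
Gzme: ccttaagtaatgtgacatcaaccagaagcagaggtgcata
The motif is thus spelled in full in Gzmc, Gzmf and Gzmg, and not in the Gzmd, Gzme and Gzmb stretches. Of 32851 promoters of the same length, 508 (1.55%) hold it. A second motif, AACCACA, known as a core of Runx sites, occurs in all 6 stretches and in 4.40% of all promoters. It does not overlap the first. TGANTCA, the letters of an AP-1 site, was found in the Gzmb stretch alone of the 6 and in 6.75% of all promoters. TTCNNNGAA, the letters of a STAT site, and TATAAA were in none of the 6, and in 7.02% and 12.4% of all promoters. All motifs were searched on both strands. A match is a description of letters and not a site of binding.

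The chosen genes set the size of the set in each library. Gzmc/Gzmf barcodes were 165 of 4220 Cd8 T barcodes of the DOPAC library (3.91%, exact 95% interval 3.35% to 4.54%) and 1 of 922 of the Control library (0.108%, 0.00275% to 0.603%), Cd8 T meaning the Cd3, Cd8 and Cd4 limits alone. Among barcodes that also pass the other limits, they were 7.26% of 2272 in the DOPAC library and 0.330% of 303 in the Control library. With each barcode thinned to 1000 UMIs, the shares were 2.46% (55 of 2237) in the DOPAC library and 0.331% (1 of 302) in the Control library. The thinned intervals, 1.86% to 3.19% and 0.00838% to 1.83%, did not overlap, the Control one resting on 1 barcode. Only the Gzmc and Gzmf counts were thinned here, and all other limits of the rule were read at full depth. At that depth the Cd8 T barcodes had a median of 5020.5 UMIs in the DOPAC library and 8297 in the Control library. What this does to the thinned shares was not tested. Tumors of 4 mice stand behind each library, so a difference between mice and one between treatments cannot be told apart here, and the rule was drawn with this difference in view.

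The lone Control barcode had traits that some of the DOPAC ones also had. It held 20 Gzmc UMIs and no Gzmf UMI among 17981 UMIs. Its T-cell evidence was 1 Cd3d UMI, 2 Cd8b1 UMIs and 5 Trac UMIs, with Cd3e at 0, and it carried 16 UMIs of Tyrobp and 4 of Klrb1c, genes of NK cells. Of the 165 DOPAC barcodes, 70 held Gzmc alone, 17 had Cd3e at 0, 58 held Tyrobp and 10 held Klrb1c. Another 20 Control Cd8 T barcodes held Gzmc or Gzmf but went past a limit of the rule, 18 of them through C1qa, C1qb, Csf1r or Cd79a.

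**Figure D1:**
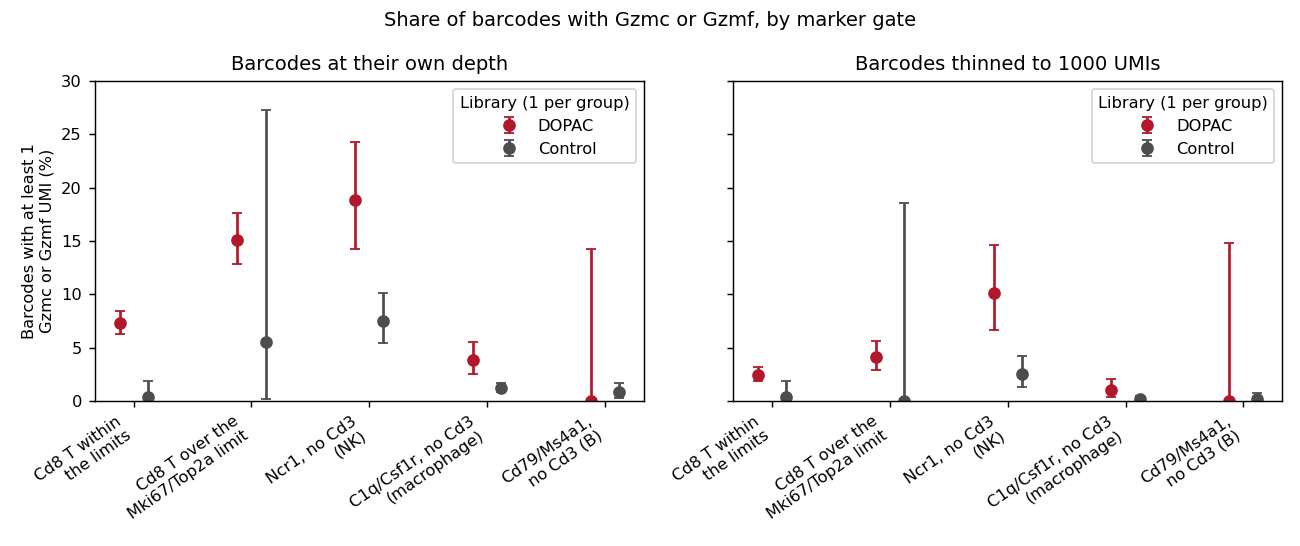
The points give the percentage of barcodes with at least 1 Gzmc or Gzmf UMI in 5 marker gates, with exact 95% intervals for counting error, at own depth (left) and thinned to 1000 UMIs (right), DOPAC left of Control in each pair. DOPAC Cd8 T barcodes within the limits stand at 7.26% and 2.46%, and Control ones at 0.330% and 0.331%.

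Free RNA in the droplets gives a floor to such shares. Macrophage barcodes (at least 2 UMIs of C1qa, C1qb and Csf1r, no Cd3) should lack these granzymes, and 27 of 709 in the DOPAC library (3.81%) held a UMI of one of them at a median of 4304 UMIs, against a median of 3965.5 UMIs in the Cd8 T barcodes within the limits. For exactly 1 UMI the 2 shares were close, 4.18% (3.40% to 5.09%) of the Cd8 T barcodes and 3.39% (2.18% to 4.99%) of the macrophage barcodes. For 2 or more UMIs they were 3.08% (2.41% to 3.88%) of the Cd8 T barcodes and 0.423% (0.0873% to 1.23%) of the macrophage barcodes. The 95 Gzmc/Gzmf barcodes with a single UMI therefore could not be told from background one by one, while the share with 2 or more lay above the macrophage share with intervals that did not overlap. Thinned to 1000 UMIs, the shares with at least 1 UMI were 2.46% (1.86% to 3.19%) of the Cd8 T barcodes and 1.01% (0.405% to 2.06%) of the macrophage barcodes. Those intervals overlapped. B-cell barcodes had 0 of 24, which allows a share of up to 12.5%.

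The ratio of Gzmc to Gzmf differed between cell types of the DOPAC library. Cd8 T barcodes within the limits held 264 Gzmc and 291 Gzmf UMIs. NK barcodes (Ncr1, no Cd3) held 504 Gzmc and 0 Gzmf UMIs, 0 of 249 barcodes with Gzmf allowing up to 1.20%. Macrophage barcodes held 30 Gzmc and 9 Gzmf UMIs. Summed over each gate and given as CPM (counts scaled to a common library total), Gzmf stood at 28.8 CPM (25.6 to 32.4) in the Cd8 T barcodes within the limits and at 2.76 CPM (1.26 to 5.23) in the macrophage barcodes. Gzmc stood at 26.2 CPM (23.1 to 29.5) in these T barcodes and at 515 CPM (471 to 562) in the NK barcodes.

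The set is part of a wider Gzmc and Gzmf expression in CD8 T cells, because the rule leaves out dividing ones. In the DOPAC library 282 further Cd8 T barcodes held Gzmc or Gzmf and went past a limit, 209 of them the limit on Mki67 and Top2a. Of Cd8 T barcodes over that limit without Ncr1, C1qa, C1qb, Csf1r or Cd79a, 15.1% of 906 held Gzmc or Gzmf at a median of 8050 UMIs. After thinning to 1000 UMIs this was 4.09% (2.90% to 5.60%), against 2.46% (1.86% to 3.19%) within the limits, and the intervals overlapped. In CPM, Gzmf was at 35.7 (31.6 to 40.2) over the limit and 28.8 within the limits. Just inside the limit, 45 of the 165 held exactly 1 UMI of Mki67 or Top2a, and just outside it 25 barcodes held 2.

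**Figure D2:**
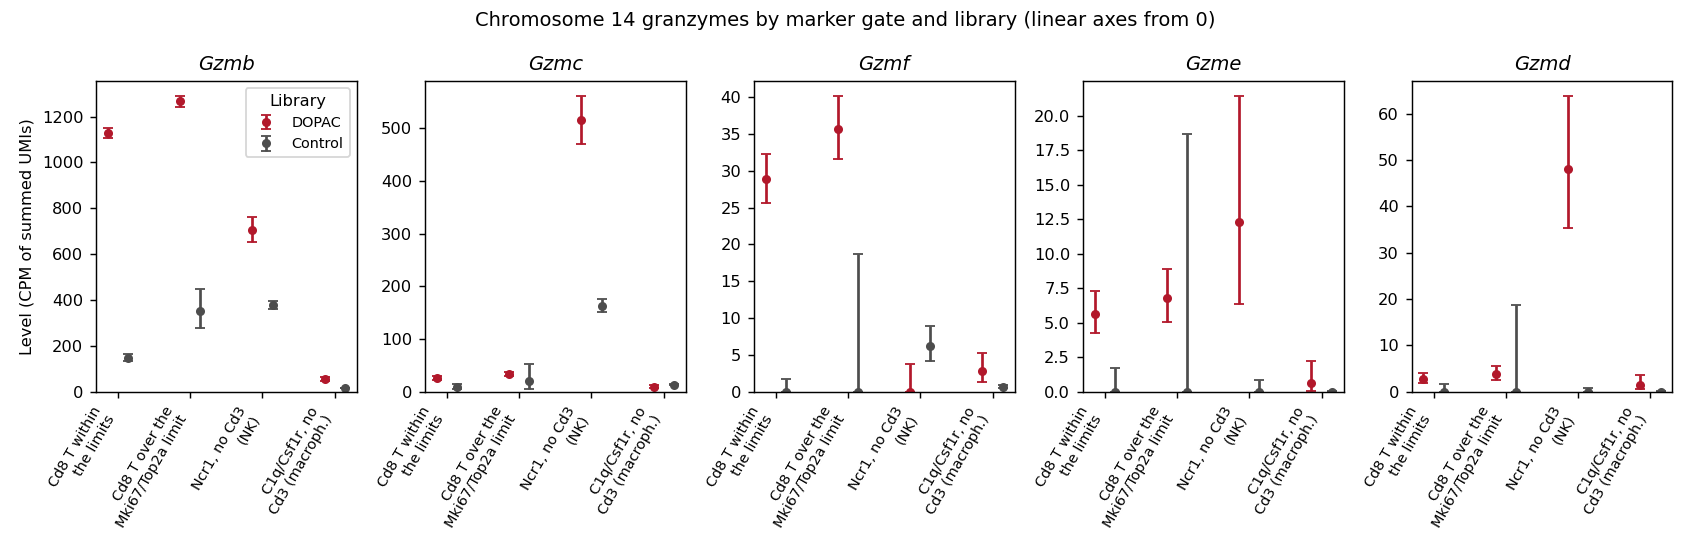
Each panel gives the summed level of 1 granzyme gene in CPM (linear axes, exact 95% Poisson intervals) in 4 marker gates, DOPAC left of Control. Gzmf reached 28.8 and 35.7 CPM in the 2 Cd8 T gates of the DOPAC library and 0 in its NK barcodes, while Gzmc was highest in NK barcodes, at 515 CPM in the DOPAC library and 163 CPM in the Control library.

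The 2 choosing genes, given as a description since the rule used them, were spread unevenly over the 165 DOPAC barcodes. Gzmc alone was found in 70, Gzmf alone in 73 and both in 22. The sum of the 2 genes was lowest at 1, with a median of 1 and a highest value of 50 UMIs. It was 1 UMI in 95 barcodes, which therefore cannot hold both genes, 2 to 4 in 51, and 5 or more in 19. Of the 70 with 2 or more UMIs, 22 held both. The 19 richest barcodes carried 58.7% of all 555 UMIs, and 10 of them held both genes, 4 only Gzmc and 5 only Gzmf. The highest Gzmf count was 39, in a barcode with 21 Gzmb, 3 Cd3e and 6 Cd8a UMIs. The highest Gzmc count was 50, in a barcode with 47 Gzma, 18 Tyrobp and 15 Fcer1g UMIs but no Cd3d, Cd3e, Cd8a or Prf1 UMI. That barcode qualified through 2 Cd3g and 2 Cd8b1 UMIs, and sums that lean on it are given with and without it.

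**Figure D3:**
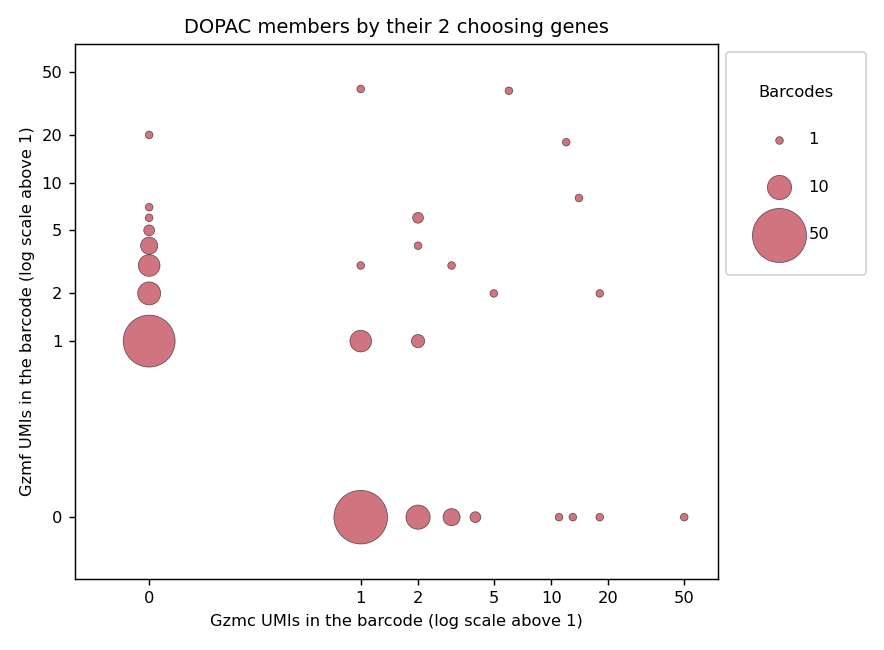
Each circle stands for the DOPAC barcodes with a given number of Gzmc (x axis) and Gzmf (y axis) UMIs, both axes linear to 1 and logarithmic above, and its area gives the number of barcodes. Barcodes with 1 UMI lie on an axis by construction, and in all 70 barcodes hold Gzmc only, 73 hold Gzmf only and 22 hold both.

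The markers proposed for these cells held only in part. The T-cell gene Cd3e, one of the 3 Cd3 genes by which the rule chose, was found in 148 of the 165 barcodes. Gzmb was found in 157. Mt3, a metallothionein, was found in 41 and Rgs16, a brake on G-protein signalling, in 71. Levels were set against 2 comparison sets of the same library. One is the 3773 other Cd8 T barcodes, with Gzmc and Gzmf at 0, and the other is the 2107 of them that also pass the limits on division and other lineages, called limit-matched. Of the 3773, 44.2% fail those limits, so differences in division and macrophage genes from the wider set are set by the rule.

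Gzmb was higher in the Gzmc/Gzmf barcodes, and Rgs16 was not. Gzmb ranged from 0 to 61 UMIs with a median of 7 in Gzmc/Gzmf barcodes, against 0 to 90 with a median of 3 in the other barcodes and 0 to 72 with a median of 3 in the limit-matched ones. The ranges overlap throughout. In sums, Gzmb stood at 1855 CPM in Gzmc/Gzmf barcodes, against 1025 CPM in the other (1.81-fold, 1.72 to 1.90) and 1054 CPM in the limit-matched barcodes (1.76-fold, 1.67 to 1.85). At 1000 UMIs a barcode, Gzmb was found in 71.8% of Gzmc/Gzmf barcodes (64.2% to 78.5%), 51.8% of the other and 52.0% of the limit-matched ones, with 6.75% in macrophage barcodes. Mt3 stood at 52.6 CPM in Gzmc/Gzmf barcodes, against 35.3 CPM in the other and 33.2 CPM in the limit-matched barcodes (1.59-fold, 1.15 to 2.15). Rgs16 stood at 125 CPM in Gzmc/Gzmf barcodes, below the 170 CPM of the other and beside the 148 CPM of the limit-matched barcodes (0.839-fold, 0.688 to 1.01), so it does not mark them.

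The other granzymes of the chromosome 14 cluster came with the choosing genes in a few barcodes, and the shared sequence named above applies to them too. Gzme (chr14:56117626-56120625) had 48 UMIs in 11 Gzmc/Gzmf barcodes and 24 UMIs in 21 of the 3773 others, 51.5 CPM against 1.09 CPM (47.3-fold, 28.4 to 80.8). Gzmd (chr14:56129556-56132608) had 25 UMIs in 8 Gzmc/Gzmf barcodes and 10 UMIs in 10 others, 26.8 CPM against 0.454 CPM (59.2-fold, 27.4 to 138). Gzmg had 5 UMIs, all in 1 barcode, and Gzmn none. In all, 15 of the 165 held Gzmd, Gzme or Gzmg. Among the barcodes with 5 or more Gzmc and Gzmf UMIs, Gzmd reached 189 CPM, and it was at 0 in those with 1 UMI.

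Outside the cluster, Gzma and Prf1 had higher sums, and the Gzma sum leaned on few barcodes. The cytotoxic list as a whole was called about as often as all genes against the limit-matched barcodes. Of 21 cytotoxic granule genes, 5 were at least 1.5-fold higher than in the other Cd8 T barcodes and 0 lower, where 14.6% of all 12487 genes with at least 20 UMIs were that much higher and 11.8% that much lower. Against the limit-matched barcodes it was 3 higher and 1 lower of 21, beside 12.6% higher and 8.8% lower of 10860 genes. These 4 all-gene shares are the ones the later counts are set beside. The list's median log2 ratio was 0.23 and 0.09 in the 2 comparisons, beside 0.01 and 0.02 over all genes. Perforin (Prf1) stood at 248 CPM in Gzmc/Gzmf barcodes, against 165 CPM in the other and 171 CPM in the limit-matched barcodes (1.45-fold, 1.26 to 1.67). Prf1 was found in 18.40% of Gzmc/Gzmf barcodes thinned to 1000 UMIs (12.78% to 25.22%). The Prf1 shares of the other and the limit-matched barcodes, 13.62% and 14.03%, lay inside that interval. Gzma stood at 303 CPM in Gzmc/Gzmf barcodes, or 254 CPM without the barcode of highest Gzmc. It stood at 165 CPM in the other and 190 CPM in the limit-matched barcodes. Of its 282 UMIs in Gzmc/Gzmf barcodes, single barcodes held 47, 33 and 20, and these had 18, 9 and 10 Tyrobp UMIs. After thinning, Gzma was found in 14.1% of Gzmc/Gzmf barcodes (9.16% to 20.4%). The shares of the other and the limit-matched barcodes, 10.9% and 10.5%, lay inside that interval. Gzmk, a granzyme of earlier memory-type CD8 T cells, was at 40.8 CPM in Gzmc/Gzmf barcodes, 52.6 CPM in the other and 60.4 CPM in the limit-matched barcodes (0.676-fold, 0.473 to 0.940).

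Among genes with at least 100 UMIs, leaving out Gzmc, Gzmf and the other genes of the rule, the 3 with the highest ratio were Serpinb9b, Dscam and Serpine2, of which the first and the last encode protease inhibitors. Serpinb9b, a serpin of the granzyme-inhibitor family, was at 39.7 CPM in Gzmc/Gzmf barcodes, against 10.7 CPM in the other and 10.5 CPM in the limit-matched barcodes (3.79-fold, 2.52 to 5.59). Its 37 UMIs lay in 13 barcodes, and without the richest of these it was at 29.3 CPM. Serpine2, which encodes the secreted serine protease inhibitor nexin-1, was at 41.9 CPM in 17 Gzmc/Gzmf barcodes, against 14.7 CPM in the other and 12.6 CPM in the limit-matched barcodes (3.34-fold, 2.26 to 4.83). Dscam, a cell adhesion gene best known from neurons, was at 143 CPM and found in 24.2% of Gzmc/Gzmf barcodes. It was at 42.2 CPM and in 9.54% of the other, and at 39.2 CPM and in 6.64% of the limit-matched barcodes (3.64-fold, 2.96 to 4.46). NK barcodes held more of it, at 407 CPM, and after thinning Dscam was found in 8.59% of Gzmc/Gzmf barcodes and 20.2% of NK barcodes, with exact 95% intervals that did not overlap. Styk1, a kinase-like membrane protein, was at 47.3 CPM in Gzmc/Gzmf barcodes, against 18.8 CPM in the other and 22.1 CPM in the limit-matched barcodes, and it too was higher in NK barcodes, at 156 CPM. Serpinb9b was at 39.9 CPM and Serpine2 at 27.6 CPM in NK barcodes, near their levels here. Of the 12 highest genes, Wdcp rested on few barcodes, with 12 of its 27 UMIs in 1. Alkbh4, Dnajc12, Nat2, Coa4, Dkkl1, Samd11 and Calcoco1, the rest of the 12, lay between 11.8 and 18.3 CPM in Gzmc/Gzmf barcodes.

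Metallothioneins, small proteins that bind zinc and copper, were higher as a group. All 8 genes of the metallothionein and zinc list had a log2 ratio above 0 in both comparisons, and 4 were at least 1.5-fold higher, Mt1, Mt2, Mt3 and the zinc importer Slc39a14, beside 14.6% and 12.6% of all genes. The list's median log2 ratio was 0.50 over the other and 0.59 over the limit-matched barcodes. Mt1 stood at 858 CPM in Gzmc/Gzmf barcodes, against 529 CPM in the other and 514 CPM in the limit-matched barcodes (1.67-fold, 1.55 to 1.80). Mt2 stood at 193 CPM in Gzmc/Gzmf barcodes, against 103 CPM in the other and 103 CPM in the limit-matched barcodes (1.88-fold, 1.60 to 2.21). At 1000 UMIs a barcode, Mt1 was found in 49.1% of Gzmc/Gzmf barcodes (41.2% to 57.0%), 33.4% of the other and 32.3% of the limit-matched ones. For Slc39a14 the interval of the fold reached 1 in both comparisons (0.972 to 2.47 over the limit-matched barcodes).

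Genes of naive and stem-like T cells were lower. Of 16 such genes, 0 were at least 1.5-fold higher and 7 lower than in the other Cd8 T barcodes, and 0 higher and 8 lower of 15 against the limit-matched ones, with medians of -0.32 and -0.66. Over all genes 11.8% and 8.8% were that much lower. Tcf7, the transcription factor of self-renewing T cells, had 4 UMIs in the Gzmc/Gzmf barcodes, 4.30 CPM, against 17.8 CPM in the other and 25.5 CPM in the limit-matched barcodes (0.168-fold, 0.0454 to 0.436). S1pr1, the receptor that lets T cells leave tissue, was at 2.15 CPM in the Gzmc/Gzmf barcodes, against 11.8 CPM in the other and 17.4 CPM in the limit-matched barcodes (0.124-fold, 0.0149 to 0.454). Bach2, a repressor of effector genes, was more abundant, at 187 CPM in Gzmc/Gzmf barcodes, 311 CPM in the other and 403 CPM in the limit-matched barcodes (0.463-fold, 0.396 to 0.540). Dapl1 had 0 of 931173 UMIs in the Gzmc/Gzmf barcodes, a limit of 3.22 CPM, against 6.44 CPM in the other and 8.19 CPM in the limit-matched barcodes. Tcf7 was already too sparse for thinned shares to be read, with 2 of 163 Gzmc/Gzmf barcodes holding a UMI.

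Of the transcription factors of effector and exhausted cells, Eomes and Tox were lower, while the list as a whole had lower genes about as often as all genes. Of 22 such factors none was at least 1.5-fold higher, and 3 were lower than in the other and 2 lower than in the limit-matched barcodes, beside 11.8% and 8.8% of all genes. Eomes, a factor of memory and exhausted CD8 T cells, was at 16.1 CPM in Gzmc/Gzmf barcodes, against 35.2 CPM in the other and 35.8 CPM in the limit-matched barcodes (0.450-fold, 0.249 to 0.753). Tox, the driver of the exhaustion program, was at 607 CPM in Gzmc/Gzmf barcodes, against 759 CPM in the other and 863 CPM in the limit-matched barcodes (0.703-fold, 0.645 to 0.766). Of 15 checkpoint receptors, 1 was higher and 1 lower in each comparison, not above the all-gene shares. These were Klrg1, higher with 11 UMIs, 5 of them in 1 barcode, and Btla, lower with 7 UMIs. Pdcd1, the gene of PD-1, was at 145 CPM in Gzmc/Gzmf barcodes, 142 CPM in the other and 150 CPM in the limit-matched barcodes, where the fold was 0.966 with an interval of 0.803 to 1.15. Lag3 had a fold of 0.968 (0.706 to 1.30) and Ctla4 of 0.969 (0.862 to 1.09) over the limit-matched barcodes. Havcr2, the gene of TIM-3, was at 247 CPM in Gzmc/Gzmf barcodes, 191 CPM in the other and 211 CPM in the limit-matched barcodes (1.17-fold, 1.02 to 1.34).

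Receptors of costimulation and cytokines were mixed. Of 16 genes of TNF-family costimulation, 4 were higher and 3 lower than in the other Cd8 T barcodes, and 2 higher and 2 lower than in the limit-matched ones. The all-gene shares were 14.6% higher and 11.8% lower, and 12.6% higher and 8.8% lower, so the second pair of counts is about what any genes gave. Tnfrsf4, the gene of OX40, was at 81.6 CPM in Gzmc/Gzmf barcodes, against 48.8 CPM in the other and 52.5 CPM in the limit-matched barcodes (1.55-fold, 1.20 to 1.98). Il2ra, the high-affinity chain of the interleukin-2 receptor, was at 83.8 CPM in Gzmc/Gzmf barcodes, against 54.0 CPM in the other and 51.3 CPM in the limit-matched barcodes (1.63-fold, 1.27 to 2.08). Bcl2, a survival gene of resting T cells, was at 50.5 CPM in Gzmc/Gzmf barcodes, against 72.1 CPM in the other and 95.5 CPM in the limit-matched barcodes (0.528-fold, 0.385 to 0.709). Ifng was level at 171 CPM in Gzmc/Gzmf barcodes, 169 CPM in the other and 165 CPM in the limit-matched barcodes.

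Among the remaining lists, immediate-early and energy genes had medians away from 0, with few genes past 1.5-fold. Of 17 immediate-early genes none was at least 1.5-fold higher, 6 were lower than in the other and 3 lower than in the limit-matched barcodes, with medians of -0.28 and -0.30, beside 11.8% and 8.8% lower of all genes. Fosb was at 38.7 CPM in Gzmc/Gzmf barcodes, against 78.1 CPM in the other and 67.4 CPM in the limit-matched barcodes. Of 24 nuclear genes of the respiratory chain 21 had a log2 ratio above 0 in each comparison and none reached 1.5-fold, with medians of 0.18 and 0.29. Of 17 glycolysis genes, 2 were higher than in the other and 3 higher than in the limit-matched barcodes, and 0 were lower, with medians of 0.15 and 0.36. The all-gene shares were 14.6% and 12.6% higher, so these counts are near the background. The glycolytic enzyme Gapdh was at 1821 CPM in Gzmc/Gzmf barcodes, against 1452 CPM in the other and 1299 CPM in the limit-matched barcodes.

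The other lists did not move together, and chemokine receptors had no gene at least 1.5-fold higher. Of 21 genes of innate and NK-type receptors, 5 were higher and 3 lower than in the other Cd8 T barcodes, and 2 higher and 3 lower of 20 against the limit-matched ones. Over all genes 14.6% were higher and 11.8% lower in the first comparison, and 12.6% higher and 8.8% lower in the second. Chemokine receptors had 0 higher and 3 lower in both comparisons, of 10 and of 8 genes. Their median log2 ratio was 0.097 over the other and -0.27 over the limit-matched barcodes. Type I interferon genes, hypoxia genes, heat shock genes and genes of T-cell receptor signalling had at most 3 genes past 1.5-fold in either direction. Medians of these lists lay between -0.27 for chemokine receptors and 0.16 for heat shock genes against the limit-matched barcodes.

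Division genes changed direction with the comparison. Of the 20 not in the rule, 13 were lower and 0 higher than in the other Cd8 T barcodes, with a median of -0.76. Against the limit-matched barcodes 6 were higher and 0 lower, with a median of 0.35, beside 12.6% higher and 8.8% lower of all genes. Rrm2, which makes DNA precursors, was at 16.1 CPM in Gzmc/Gzmf barcodes, against 29.6 CPM in the other and 6.55 CPM in the limit-matched barcodes (2.46-fold, 1.30 to 4.38). Of the 12 genes lowest against the wider set, Prc1, Nusap1, Kif4 and Cdk1 belong to cell division and Mrc1 and Fcgr3 to myeloid cells, as the rule's limits fix. The 12 lowest against the limit-matched barcodes, a ranking added after the first was seen, began with S1pr1 and Tcf7.

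**Figure D4:**
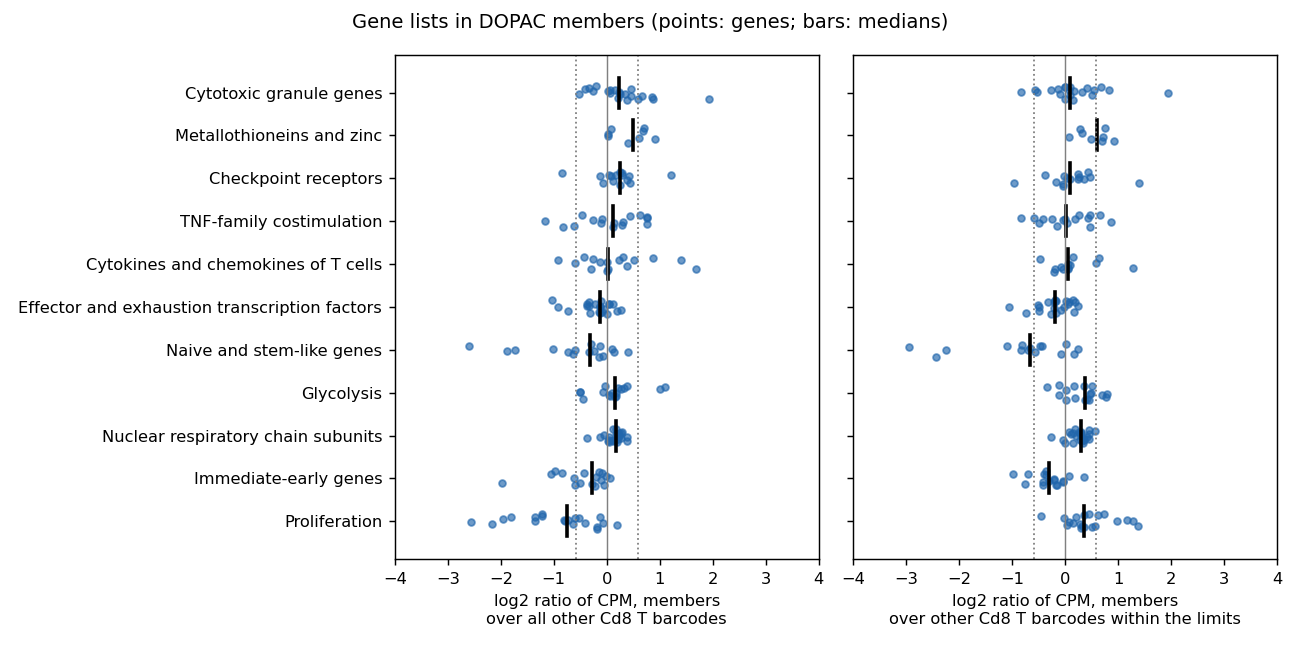
Points are genes with at least 20 UMIs and black bars list medians of the log2 ratio of CPM, Gzmc/Gzmf barcodes over all other Cd8 T barcodes (left) and over the limit-matched ones (right), with dotted lines at 1.5-fold. The metallothionein median is 0.50 and 0.59, the naive and stem-like median -0.32 and -0.66, and the proliferation median is -0.76 on the left and 0.35 on the right.

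Several levels followed the number of Gzmc and Gzmf UMIs among the Gzmc/Gzmf barcodes, read as CPM of sums in limit-matched barcodes with 0 and in Gzmc/Gzmf barcodes with 1, with 2 to 4 and with 5 or more. Gzmb stood at 1054, 1514, 2031 and 2791 CPM in that order. Prf1 stood at 171, 214, 239 and 412 CPM, and Mt1 at 514, 637, 1011 and 1367 CPM. Lgals1, the gene of galectin-1, stood at 1682, 2147, 2924 and 3269 CPM. Each sum of these 4 genes was higher in each next class, and for Gzmb and Mt1 no neighbouring intervals overlapped. For Prf1 they overlapped among the first 3 classes, at 162 to 179 CPM for 0 UMIs, 175 to 258 CPM for 1 UMI and 188 to 300 CPM for 2 to 4 UMIs. For Lgals1 the last 2 overlapped, at 2738 to 3119 CPM and 2955 to 3606 CPM. The Mt1 sums lean on single barcodes, with 46 Mt1 UMIs in 1 barcode of the last class. In the class of 2 to 4 UMIs, 1 barcode held 47. The intervals do not cover such spread between barcodes, and the classes are cut on the genes of the rule.

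Ccl5, Tox and Bcl2 had lower sums along the same order. Ccl5, a chemokine made in bulk by effector CD8 T cells, stood at 8353, 7454, 4837 and 3301 CPM, with no overlap of neighbouring intervals. Tox stood at 863, 649, 641 and 346 CPM, and its 2 middle classes overlapped, at 580 to 724 CPM and 555 to 736 CPM. Bcl2 stood at 95.5, 58.5, 44.6 and 32.9 CPM, the last from 4 UMIs, and its 3 classes of Gzmc/Gzmf barcodes overlapped one another. Tcf7 had no UMI in the 70 barcodes with 2 or more. Depth moved along this order as well, with medians of 3920, 4964, 5577 and 6451 UMIs, and so did summed division genes outside the rule, at 1472, 1540, 2318 and 2421 CPM. Summed NK-cell markers stood at 1020, 1260, 960 and 1927 CPM, the last being 1315 CPM without the barcode of highest Gzmc. The part of depth, division and NK-type RNA in these levels was not tested. The class of 5 or more holds 19 barcodes, and Gzma shows how 1 of them can set a sum, at 757 CPM with the barcode of highest Gzmc and 392 CPM without it.

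**Figure D5:**
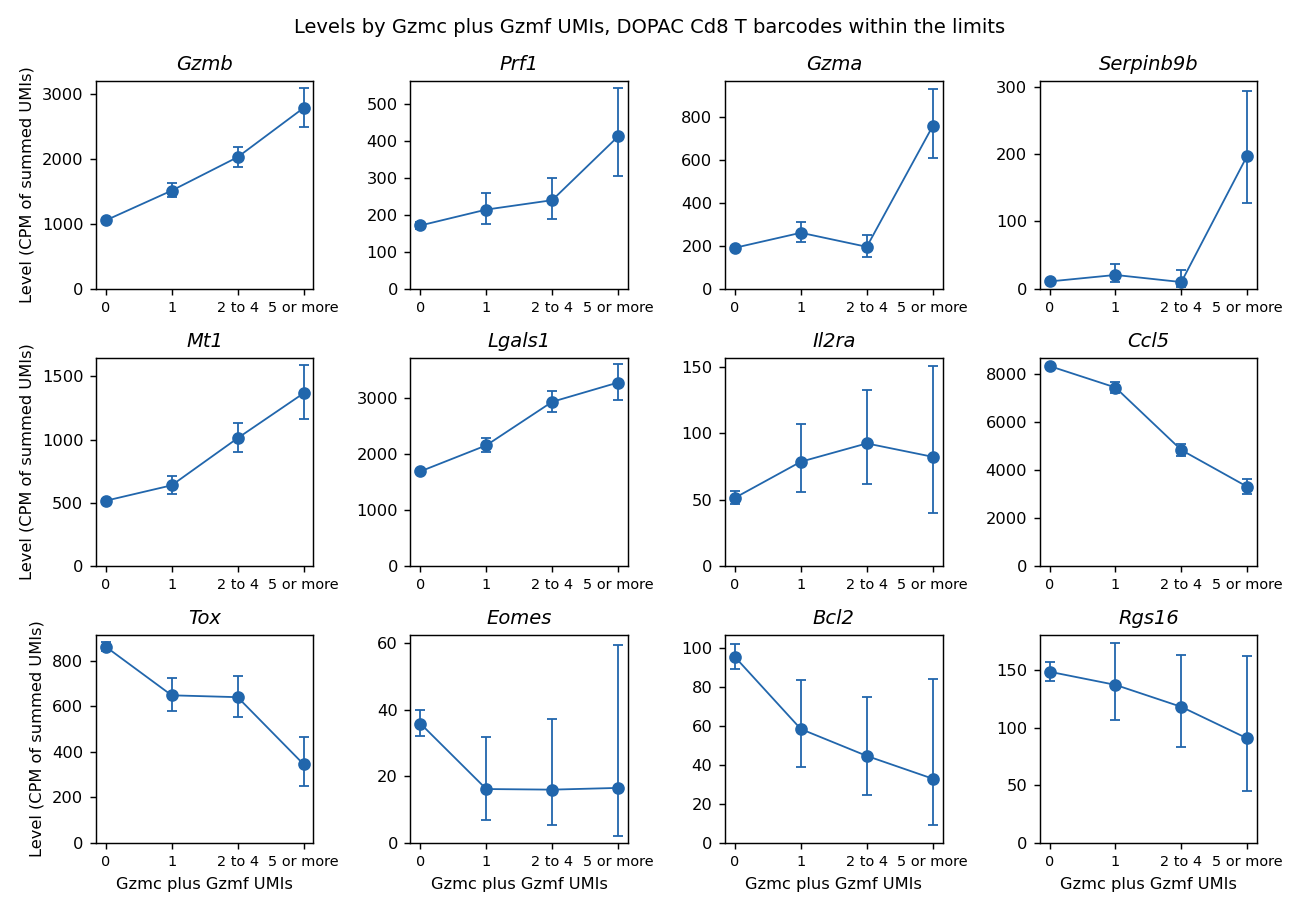
Each panel gives the summed level of 1 gene in CPM with exact 95% Poisson intervals, in limit-matched DOPAC Cd8 T barcodes with 0 Gzmc and Gzmf UMIs and in Gzmc/Gzmf barcodes with 1, 2 to 4, and 5 or more. In the last class Gzmb is at 2791 CPM and Mt1 at 1367 CPM, above all other classes, while Ccl5 at 3301 CPM and Tox at 346 CPM are below them.

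Barcodes with Gzmc alone and with Gzmf alone were compared among themselves. Xcl1, a chemokine of NK cells and CD8 T cells, stood at 436 CPM with Gzmc alone and 59.5 CPM with Gzmf alone (7.34-fold, 4.77 to 11.8). Of the 168 UMIs with Gzmc alone, 51.8% came from 1 barcode with 87, without which Xcl1 was at 215 CPM, in 23 barcodes with Gzmc alone and 15 with Gzmf alone. Gzma was at 457 CPM with Gzmc alone, or 341 CPM without the barcode of highest Gzmc, and at 186 CPM with Gzmf alone. The myeloid genes Cxcl2 and Il1b stood apart in the same direction, Cxcl2 at 446 CPM with Gzmc alone and 161 CPM with Gzmf alone. Summed NK-cell markers moved with this contrast. They stood at 1763 CPM with Gzmc alone, or 1574 CPM without the barcode of highest Gzmc, and at 884 CPM with Gzmf alone. Dendritic-cell markers, at 1537 and 793 CPM in that order, did so too. So did melanoma markers, at 49.3 and 7.43 CPM from 19 and 3 UMIs. Markers of neutrophils, of gamma delta T cells, and of regulatory and CD4 T cells were higher with Gzmf alone. The part of such RNA in the contrast was not tested. Gzmb was lower with Gzmc alone, at 1430 CPM, than with Gzmf alone, at 1925 CPM, and it stood at 2805 CPM with both.

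Markers of other cell types bound what else the barcodes could hold. Markers of NK cells summed to 1246 CPM in Gzmc/Gzmf barcodes, 1213 CPM in the other and 1020 CPM in the limit-matched barcodes, against 7264 CPM in NK barcodes, with 0 of 12 genes at 0. These markers differed among the classes of Gzmc/Gzmf barcodes, as given above. Tyrobp, the signalling partner of NK receptors, was found in 58 of the 165 (35.2%), 34.5% of the other and 24.1% of the limit-matched barcodes, against 85.1% of NK barcodes, and 6 of the 165 held at least 5 UMIs. Markers of macrophages summed to 945 CPM in Gzmc/Gzmf barcodes, 1071 CPM in the other and 792 CPM in the limit-matched barcodes, against 7197 CPM in macrophage barcodes. Against the limit-matched barcodes 5 of 10 macrophage genes were higher and 1 lower, beside 12.6% and 8.8% of all genes. The part of such RNA in the results was not tested. Red-cell genes were at 0 for all 5, and 10 of 11 basophil and mast-cell genes were at 0, Cpa3 and Mcpt8 among them. Dendritic-cell markers summed to 1100 CPM in Gzmc/Gzmf barcodes, 2005 CPM in the other and 1291 CPM in the limit-matched barcodes. Melanoma genes summed to 29.0 CPM in Gzmc/Gzmf barcodes (27 UMIs, 19.1 to 42.2 CPM), 38.7 CPM in the other and 18.3 CPM in the limit-matched barcodes (15.7 to 21.3 CPM), with Sox10 at 0. Of the melanoma genes measured, 3 of 5 were higher and 1 lower than in the other, and 2 of 3 higher than in the limit-matched barcodes. Over all genes 14.6% were higher and 11.8% lower than in the other, and 12.6% higher and 8.8% lower than in the limit-matched barcodes. Markers of regulatory and CD4 T cells summed to 1133 CPM in Gzmc/Gzmf barcodes, 967 CPM in the other and 1076 CPM in the limit-matched barcodes. Of these, 3 of 6 and 3 of 5 measured genes were higher and 0 lower, beside the same all-gene shares. Il2ra and Tnfrsf4 were among the higher ones, and the medians were 0.59 and 0.65. Foxp3, the factor that defines regulatory T cells, had 4 UMIs in 2 barcodes. The part of such cells in the results was not tested.

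T-cell receptor segments, which the rule did not use, were found about as often as in other CD8 T cells. A Trbv gene was detected in 13.9% of Gzmc/Gzmf barcodes (9.05% to 20.2%), 14.8% of the other and 12.7% of the limit-matched barcodes. Among barcodes with exactly 1 Trbv gene, Trbv2 made up 13 of 22 in Gzmc/Gzmf barcodes (59.1%, 36.4% to 79.3%), 58.2% in the other and 59.1% in the limit-matched ones. Trbv20 made up 4 of 22 (18.2%, 5.19% to 40.3%), 6.42% in the other and 6.06% in the limit-matched ones, both inside the interval of the Gzmc/Gzmf share. These shares are of the DOPAC library. In the Control library, Trbv2 made up 8 of 137 in the other Cd8 T barcodes (5.84%, 2.55% to 11.2%). The high Trbv2 share was thus common to the Cd8 T barcodes of the DOPAC library and not particular to this set. Its source was not tested, and with 1 library per group, mouse and treatment cannot be told apart. No clone is read from these counts, since a segment is shared by many clones.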

How the data were processed

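Droplet single-cell RNA sequencing gave 1 library of CD45-positive cells per group. The deposited matrices hold raw UMI counts per gene and barcode as deposited, made by the authors with Cell Ranger (the file headers name version 7.0.1) on GRCm38 per the submitters' processing notes. Whether intronic reads were counted is not given in the sources used here. The members and all gene lists were chosen with earlier results of these data known.

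Counts were summed over barcodes, given as CPM with exact 95% Poisson intervals, and folds with exact conditional binomial intervals. Log2 ratios had 1 count added to each sum and used genes with at least 20 UMIs in both sums together. Shares have Clopper-Pearson intervals, also after thinning to 1000 UMIs, which left out 2 of 165 Gzmc/Gzmf, 37 of 3773 other and 33 of 2107 limit-matched barcodes. The sets of barcodes were gated before thinning. Zero counts have a limit of 3 counts. NK, macrophage and B-cell barcodes were gated on marker genes without clustering. Doublets were scored with Scrublet in scanpy 1.11.5, whose automatic threshold marked 0 DOPAC barcodes and thus had not worked there, so the highest scores at a rate of 0.8% per 1000 barcodes were marked and kept.

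Named genes were the markers, all granzymes, the 12 highest and 12 lowest log2 ratios among genes with at least 100 UMIs found in at least 5% of barcodes of the higher side, and up to 4 per list plus those a sentence needed. Genes of the rule, ribosomal, mitochondrial, receptor-segment and unnamed genes were left out of the ranking. The procedure was tested on simulated sums with known folds. These held counting error only, so the test did not cover spread between barcodes. Python 3.11.15, numpy 2.4.6 and scipy 1.17.1 were used.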

Additional observations from a re-analysis of the deposited data

How the results depend on the processing

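No paired analysis was possible because each group is 1 library. Replicates could not be left out for the same reason. The DOPAC share of 3.91% became 1.66% with a minimum of 2 Gzmc and Gzmf UMIs, 0.450% with 5, 1.32% thinned to 1000 UMIs and 7.26% of Cd8 T barcodes with all limits. The Control share became 0% with the highest Scrublet scores left out. Genes at least 1.5-fold higher numbered 1827, and 3083 with the minimum of 2 UMIs, 5807 with 5, 8869 with no minimum of UMIs and 564 with a minimum of 100. Genes at least that much lower numbered 1477, and 956 against the limit-matched barcodes and 2233 with 0.5 counts added.

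Over all alternatives, list medians stayed within the counting error of the main value 328 times, moved past it 48 times and reversed 8 times. Named genes did so 578, 87 and 5 times. A change of sign counted as reversed only when the main value lay further from 0 than its counting error. Some smaller medians thus changed sign uncounted against the limit-matched barcodes. Chemokine receptors went from 0.097 to -0.27, heat shock genes from -0.11 to 0.16 and NK-cell markers from -0.11 to 0.12. The values counted as reversed, all below 0 in the main comparison, were these. Against the limit-matched barcodes the median log2 ratio was 0.12 for NRF2 targets, 0.35 for proliferation and 0.60 for macrophage markers, and Ect2 was at 0.013. With that comparison and the minimum of 2 UMIs together, an alternative chosen after seeing the data, they were 0.13, 0.71 and 0.23, Ect2 was at 0.70, Nusap1 at 0.27 and Kif4 at 0.20. The IL-2 list was at 0.33 when thinned, and with the minimum of 5 UMIs red-cell markers were at 0.78 and Patj at 0.46. These last values come from the 1 count added to each sum, since the 19 barcodes held 0 UMIs of red-cell genes and 1 of Patj. The cause of the others was not tested. The class of 5 or more UMIs rests on 19 barcodes, and the depth of the libraries limits sparse genes such as Tcf7.

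Thinned to 2000 UMIs, Gzmb was found in 89.2% of Gzmc/Gzmf barcodes, 69.2% of the other and 69.4% of the limit-matched ones. Mt1 was in 70.3%, 49.3% and 47.0% in the same order, Prf1 in 32.9%, 23.8% and 23.9%, and Tcf7 in 0.633%, 3.47% and 4.88%. For Prf1 the interval of the Gzmc/Gzmf barcodes, 25.7% to 40.8%, overlapped that of the limit-matched ones, 22.0% to 25.9%.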
